A study of Mus musculus with 45 samples.

Results

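The genes described here are the variable segments of the mouse antibody loci, whose symbols begin with Ighv (heavy chain), Igkv (kappa light chain) or Iglv (lambda light chain). A segment was chosen by its summed estimated read count, at least 500 over the 45 libraries of both count tables. Of 348 variable segments found in the files, 236 had a count above 0 and 120 met the rule, out of 50600 gene identifiers in all. The members nearest the threshold were Ighv2-4 with 659.71 and Ighv8-2 with 727 summed counts, and the segments just outside it were Ighv14-1 with 491.34 and Igkv11-125 with 476. Since 37 of the 45 libraries came from knockout tissue, a segment high in knockout colon met the rule more easily, so counts over the members are descriptions of the chosen segments.

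RNA was extracted from mouse distal colon with an RNeasy kit, enriched for poly(A) transcripts and sequenced. The study asked about a selective antagonist of GPR4, a G protein-coupled receptor that senses protons, in mice lacking Il10, the gene of an anti-inflammatory cytokine. The first set of libraries comprised Il10 knockout mice given vehicle (10 libraries), Il10 knockout mice given compound 13 at 10 mg/kg (7) or at 30 mg/kg (9), and WT mice with no treatment (8). The second set, labelled D77, comprised Il10 knockout mice given an antibody to p40, the subunit shared by IL-12 and IL-23 (5), and Il10 knockout mice given vehicle (5). All groups but WT therefore carried the Il10 deletion. WT mice received no vehicle, so the deletion and the vehicle cannot be told apart in that comparison. Nor can they be told apart from any difference in strain, age or sex between those groups. Strain, age, sex, route and length of dosing, and whether each library came from a separate animal are not stated by the labels, so p-values measure the spread between libraries, which may in part be technical. The labels of 1 further library disagreed on its dose, and it entered no comparison.

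Il10 itself had 0 counts in all 37 knockout libraries, where the limit of 3 counts corresponded to at most 0.132 counts-per-million (CPM, counts scaled to the library's total count). It had 0.0516 ± 0.0714 CPM in WT libraries (SD, n = 8), with a count in 4 of the 8. The WT mean thus lay below this limit, so 0 counts of Il10 do not by themselves tell a knockout from a WT library at this depth. Library totals ran between 22682491 and 36279774 estimated counts, and the 120 variable segments together held between 1939 and 57993.64 counts of a library. The 10 colon epithelium markers summed to 14958 to 24350 CPM in KO vehicle libraries and 13556 to 16462 CPM in WT libraries, so the labelled tissue carried its markers. Of these 10, 6 passed the test as higher and 1 as lower in KO vehicle than in WT libraries. Among all tested genes, 25.2% were called higher and 24.1% lower there. With anti-p40 against D77 vehicle, 2 of the 10 passed as higher and 1 as lower, beside 8.35% and 8.32% of all tested genes. The 8 smooth muscle markers moved with the groups: they summed to 428 to 9786 CPM in KO vehicle libraries against 5450 to 12841 CPM in WT libraries, and to 4334 to 11450 CPM in anti-p40 libraries against 1440 to 4412 CPM in D77 vehicle libraries. All 8 passed the test as lower in KO vehicle than in WT libraries (median log2 fold change -1.28), beside 24.1% of all tested genes. In anti-p40 against D77 vehicle libraries, 6 of 8 passed as higher (median 1.17), beside 8.35% of all tested genes. The part of this difference in tissue make-up in the values below was not tested.

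A B cell builds each antibody chain by joining one variable segment to a joining segment, with a diversity segment between them in the heavy chain, and the joined exon is spliced to a constant region. The variable segment encodes most of the antigen-binding domain, so every descendant of one B cell transcribes the same heavy and light chain segments. Plasma cells, the antibody-secreting end stage, make very large amounts of these transcripts, and those of the gut mostly secrete IgA, whose heavy chain constant region is encoded by Igha and whose dimers are held together by the joining chain Jchain. In bulk tissue, the summed variable segment RNA rises with plasma cells or with RNA per cell, and these cannot be told apart here. The evenness of usage over segments describes how equally the different segments contribute to that RNA.

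The segments on which the results turn are shown first, each as the last part, up to 300 bases, of its variable exon in GENCODE M21 transcripts (GRCm38, mm10), 5′ to 3′ in the direction of the gene. Igkv1-135 (chr6:67610209-67610508, plus strand) had the largest mean level of all members, and Igkv1-117 (chr6:68121528-68121827, plus strand) and Igkv1-110 (chr6:68270968-68271267, plus strand) followed it among the kappa segments. Capitals mark the bases at which Igkv1-117 and Igkv1-110 differ from each other. Their whole variable exons differed at 10 bases and were 96.8% identical, so that short reads from shared stretches could be divided between them.
Igkv1-135: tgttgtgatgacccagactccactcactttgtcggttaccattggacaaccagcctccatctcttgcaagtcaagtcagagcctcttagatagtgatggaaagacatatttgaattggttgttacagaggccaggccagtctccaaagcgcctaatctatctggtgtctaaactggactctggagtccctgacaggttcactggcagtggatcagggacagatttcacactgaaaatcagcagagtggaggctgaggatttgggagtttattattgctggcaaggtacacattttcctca
Igkv1-117: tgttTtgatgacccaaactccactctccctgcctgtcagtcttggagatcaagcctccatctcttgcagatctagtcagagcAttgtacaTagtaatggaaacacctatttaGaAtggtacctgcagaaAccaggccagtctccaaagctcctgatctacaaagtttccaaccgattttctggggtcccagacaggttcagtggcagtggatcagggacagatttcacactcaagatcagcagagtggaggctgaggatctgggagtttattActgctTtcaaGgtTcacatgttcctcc
Igkv1-110: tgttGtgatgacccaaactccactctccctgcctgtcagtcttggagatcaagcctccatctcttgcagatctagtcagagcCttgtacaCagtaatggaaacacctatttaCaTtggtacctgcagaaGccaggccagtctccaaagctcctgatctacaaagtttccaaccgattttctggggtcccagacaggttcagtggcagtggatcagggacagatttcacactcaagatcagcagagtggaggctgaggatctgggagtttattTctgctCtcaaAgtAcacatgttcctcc

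The lambda locus holds few segments, and Iglv1 (chr16:19085017-19085316, minus strand) and Iglv2 (chr16:19260401-19260700, minus strand) are near copies, with 96.4% identity over the exon. Capitals mark where they differ within the stretch shown. Iglv1 was the most abundant segment in more libraries than any other.
Iglv1: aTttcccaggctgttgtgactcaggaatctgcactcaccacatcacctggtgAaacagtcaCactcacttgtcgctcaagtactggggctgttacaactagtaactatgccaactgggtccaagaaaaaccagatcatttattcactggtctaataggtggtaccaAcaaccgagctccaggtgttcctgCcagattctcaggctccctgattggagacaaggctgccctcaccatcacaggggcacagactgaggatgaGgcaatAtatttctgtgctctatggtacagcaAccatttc
Iglv2: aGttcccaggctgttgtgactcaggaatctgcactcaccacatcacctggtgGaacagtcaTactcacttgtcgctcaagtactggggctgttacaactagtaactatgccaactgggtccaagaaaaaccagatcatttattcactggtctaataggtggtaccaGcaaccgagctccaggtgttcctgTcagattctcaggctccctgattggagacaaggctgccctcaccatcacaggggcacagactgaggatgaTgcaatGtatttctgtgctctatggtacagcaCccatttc

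Ighv2-9 (chr12:113879096-113879395, minus strand) was the most abundant heavy chain segment of most libraries. Igkv4-70 (chr6:69267888-69268186, minus strand) had the smallest p-value of all members in the anti-p40 comparison.
Ighv2-9: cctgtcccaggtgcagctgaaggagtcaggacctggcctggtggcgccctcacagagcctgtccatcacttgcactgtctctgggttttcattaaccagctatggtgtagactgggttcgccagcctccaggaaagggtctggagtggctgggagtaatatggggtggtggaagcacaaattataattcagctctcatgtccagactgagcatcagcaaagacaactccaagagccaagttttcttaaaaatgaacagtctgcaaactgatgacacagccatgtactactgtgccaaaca
Igkv4-70: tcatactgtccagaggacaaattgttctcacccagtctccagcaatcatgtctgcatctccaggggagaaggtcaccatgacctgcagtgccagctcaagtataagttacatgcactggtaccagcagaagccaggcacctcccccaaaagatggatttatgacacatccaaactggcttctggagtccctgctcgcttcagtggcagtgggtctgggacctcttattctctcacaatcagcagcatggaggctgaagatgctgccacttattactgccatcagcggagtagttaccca

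Igkv5-45 (chr6:69775750-69776047, minus strand) had the smallest p-value of all members in the comparison of compound 13 at 30 mg/kg, and Igkv5-43 (chr6:69823355-69823652, minus strand) was the most abundant segment of 1 WT library. They were the most alike pair of members, with 99.0% identity, and capitals mark the 3 bases at which they differ.
Igkv5-45: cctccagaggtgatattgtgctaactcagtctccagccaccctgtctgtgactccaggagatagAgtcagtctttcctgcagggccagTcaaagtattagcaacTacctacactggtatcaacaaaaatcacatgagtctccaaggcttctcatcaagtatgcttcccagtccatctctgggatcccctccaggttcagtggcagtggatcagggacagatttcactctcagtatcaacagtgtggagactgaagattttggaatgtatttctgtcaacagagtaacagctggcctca
Igkv5-43: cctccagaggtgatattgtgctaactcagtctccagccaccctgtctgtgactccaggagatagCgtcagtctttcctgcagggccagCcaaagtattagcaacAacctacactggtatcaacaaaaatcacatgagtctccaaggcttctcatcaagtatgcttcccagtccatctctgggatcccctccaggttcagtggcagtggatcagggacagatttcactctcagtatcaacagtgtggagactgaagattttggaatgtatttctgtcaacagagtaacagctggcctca

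The near identity of members bears on every single-segment value. The counts are estimates that share ambiguous reads among genes, and a value that is not a whole number shows such sharing. Among the 64 members whose nearest other variable exon was at least 95% identical, 32.8% of values above 0 were not whole, against 4.63% among the 56 members with a less similar neighbour. Igkv1-117 and Igkv1-110 each had such values in 80% of libraries, Igkv10-96 in 68.9% and Igkv4-59 in 55.6%, whereas Igkv1-135 had them in 2.22% and Igkv15-103 in 0%. How the reads were assigned is not given in detail in the sources used here, so the split between near-identical members is uncertain, while sums over members are less affected.

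Kappa segments made up most of the variable segment RNA. The 73 Igkv members on chromosome 6 held 69.4% of the 791199.95 counts of all members over 45 libraries, the 44 Ighv members on chromosome 12 held 21.6%, and the 3 Iglv members on chromosome 16 held 9.07%. The Igkv members came from 17 families and the Ighv members from 11. Among the Ighv members, Ighv1-14, Ighv4-2 and Ighv1-73 are annotated as pseudogenes, segments that are not expected to encode a working chain. Of the 120 members, 57 had a count in every library and 7 reached 1 CPM in every library.

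Per length, the most abundant member was Igkv1-135, with a mean of 542 transcripts-per-million (TPM, which corrects for gene length) over the 44 grouped libraries. Iglv1 followed with 512 TPM, Igkv1-117 with 366 TPM, Igkv1-110 with 359.5 TPM and Ighv2-9 with 353 TPM. The 6 Igkv1 members alone held 19.9% of all member counts. These abundant kappa segments lie far from the joining segments: Igkv1-135 lies 3.11 Mb from the nearest joining segment and Igkv1-110 2.45 Mb, whereas Iglv1 lies 0.0179 Mb from its own.

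The most abundant segment of a library was 1 of 9 segments over the 45 libraries. Iglv1 led in 17 libraries, Igkv1-135 in 10, Igkv1-117 in 7 and Igkv1-110 in 5. Ighv14-3, a heavy chain segment, led in 2 libraries, 1 anti-p40 and 1 D77 vehicle library. By group, Igkv1-135 led in 3 of 10 KO vehicle libraries, 3 of 7 at 10 mg/kg, 3 of 9 at 30 mg/kg and 0 of 8 WT libraries, in which Iglv1 led 5 times. Among heavy chain segments alone, Ighv2-9 led in 28 of 45 libraries, but in 1 of 8 WT libraries, in which the pseudogene Ighv1-14 led 4 times and Ighv5-17 3 times. Ranking by TPM in place of counts gave the same leading segment in 35 of 45 libraries.

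**Figure D1:**
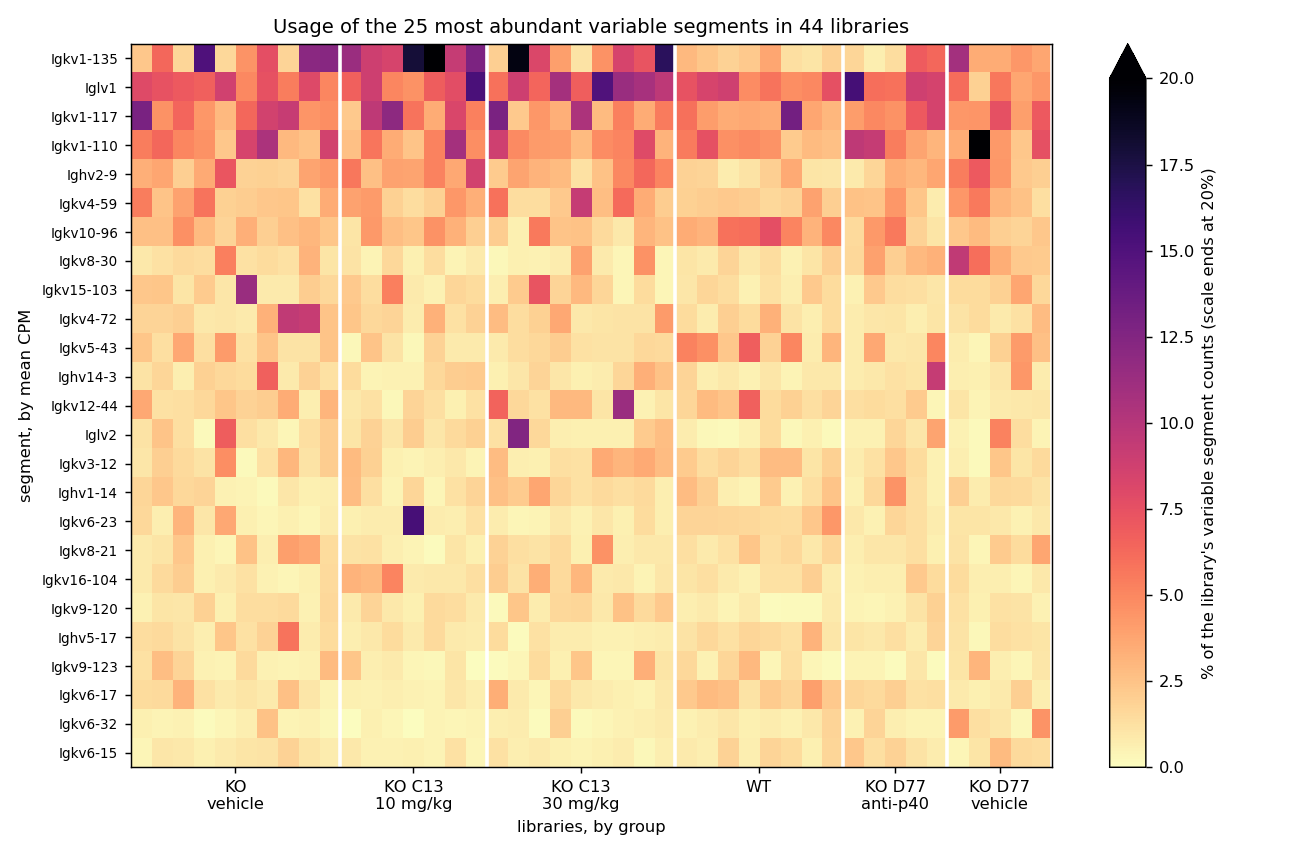
Usage of the 25 members with the largest mean CPM (rows) in the 44 grouped libraries (columns, by group), as a percent of each library's counts over the 120 members, with the colour scale ending at 20%. A few Igkv1 segments and Iglv1 carry the darkest cells, and the segment that is darkest differs between libraries of the same group.

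Variable segment RNA was several times more abundant in Il10 knockout colon than in WT colon. Summed over the 120 members, it had a lowest value of 258, a median of 567 and a highest of 1423 CPM in KO vehicle libraries, against 77.8, 111 and 200.2 CPM in WT libraries. The means were 704 ± 430 CPM in KO vehicle libraries (SD, n = 10) and 128 ± 39.2 CPM in WT libraries (SD, n = 8), a ratio of 5.51. All 10 KO vehicle libraries lay above every WT library. In TPM the sums were 3339 to 22941 in KO vehicle libraries (mean 9759) and 1087 to 2903 in WT libraries (mean 1775). No test is given for sums over members, since the members were chosen by their counts in these libraries.

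The summed levels with compound 13 overlapped those with vehicle. With vehicle, 10 mg/kg and 30 mg/kg, the means were 704 ± 430 (n = 10), 827 ± 328 (n = 7) and 579 ± 343 CPM (n = 9, all SD). At 10 mg/kg the lowest, median and highest values were 201, 959 and 1158 CPM, and at 30 mg/kg they were 111, 515 and 1204 CPM. Of the 7 libraries at 10 mg/kg, 1 lay below every KO vehicle library, as did 2 of the 9 at 30 mg/kg, and none lay above. The spread within each group was therefore larger than the difference between group means, which was 0.23 on the log2 scale at 10 mg/kg and -0.28 at 30 mg/kg.

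The antibody to p40 went with a lower summed level. The 5 anti-p40 libraries had 330, 453, 456, 338 and 729 CPM, against 1654, 951, 1170, 1509 and 1599 CPM in the 5 D77 vehicle libraries. Every anti-p40 library lay below every D77 vehicle library. The means were 461 ± 161 CPM in anti-p40 and 1377 ± 303 CPM in D77 vehicle libraries (SD, n = 5 each), a ratio of 0.335.

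**Figure D2:**
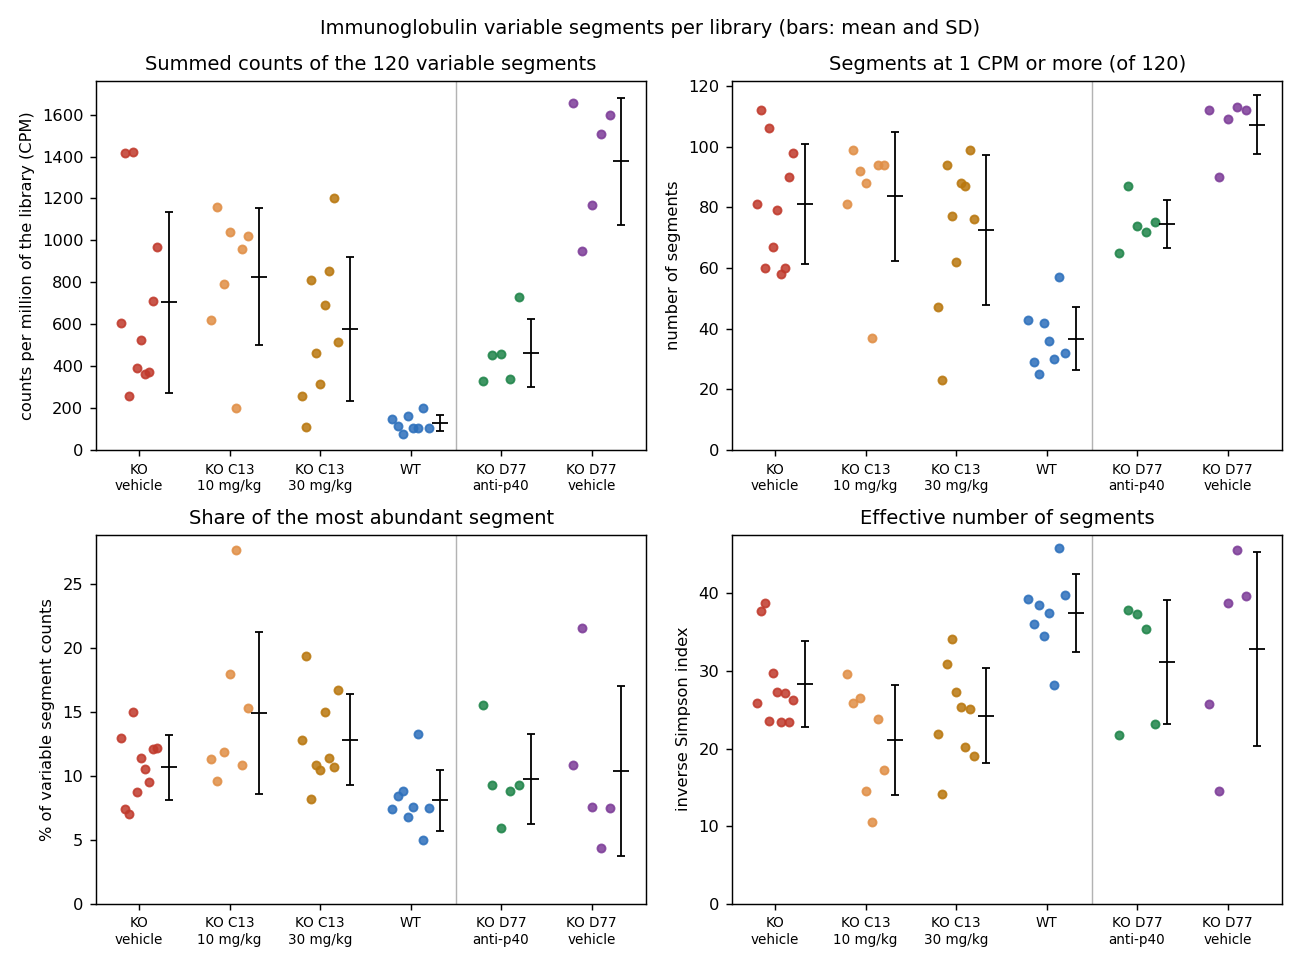
Summed level (CPM), number of members at 1 CPM or more, share of the most abundant member (%) and inverse Simpson index (effective number of segments) of the 120 variable segments, 1 point per library, with the group mean and SD as bars. All KO vehicle libraries lie above all WT libraries in summed level, and all 5 anti-p40 libraries lie below all 5 D77 vehicle libraries, whereas the shares of the most abundant member overlap in every comparison.

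The number of segments above a fixed level separated the same pairs of groups. At 1 CPM or more, KO vehicle libraries had 81.1 ± 19.9 members (58 to 112, median 80) and WT libraries had 36.8 ± 10.3 (25 to 57, median 34). All 10 KO vehicle libraries lay above every WT library. The numbers were 83.6 ± 21.3 at 10 mg/kg (37 to 99) and 72.6 ± 24.6 at 30 mg/kg (23 to 99), both overlapping the vehicle range. Anti-p40 libraries had 65, 87, 74, 72 and 75 members at this level, all below the 112, 90, 109, 113 and 112 of D77 vehicle libraries.

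The difference in number depended on the level used for detection. At 10 counts or more, KO vehicle libraries had 99.6 ± 12.6 members and WT libraries 66.9 ± 9.78, and with any count above 0 they had 116.8 ± 2.94 and WT libraries 107.8 ± 5.04 (SD, n = 10 and 8). When each library was thinned to 1939 member counts, the lowest total of any library, the expected number of members with a count was 108 ± 2.60 in KO vehicle libraries and 105 ± 4.31 in WT libraries (SD, n = 10 and 8). The ranges overlapped, at 103 to 112 in KO vehicle and 96.7 to 109 in WT libraries. Thinned in the same way, anti-p40 libraries had 109 ± 5.04 and D77 vehicle libraries 111 ± 3.43 members (SD, n = 5 each). Detected by any count above 0, the numbers were thus closer than at 1 CPM, before as well as after thinning. WT libraries still had a count for 99 to 113 of the 120 members.

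The share of the most abundant segment varied more between libraries of one group than between groups. It was 10.7 ± 2.55% in KO vehicle libraries (6.99 to 15.0%, median 10.95%) and 8.09 ± 2.38% in WT libraries (4.97 to 13.2%, median 7.55%), and 1 KO vehicle library lay above every WT library. It was 14.9 ± 6.31% at 10 mg/kg (9.55 to 27.6%) and 12.8 ± 3.53% at 30 mg/kg (8.20 to 19.3%). Of the 7 libraries at 10 mg/kg, 3 lay above every KO vehicle library, as did 2 of the 9 at 30 mg/kg. Anti-p40 libraries had 15.5, 9.28, 5.89, 8.77 and 9.28%, and D77 vehicle libraries had 10.9, 21.6, 7.57, 4.37 and 7.52%, so neither group was set apart.

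The highest share of any library was that of Igkv1-135 in library 5 at 10 mg/kg, 27.6% of 6661 member counts, with an exact 95% binomial interval of 26.6 to 28.7% that covers counting error only. This library also had the lowest summed level of its group, 201 CPM. The next were Igkv1-110 in D77 vehicle library 2, with 21.6% (21.02 to 22.1%), and Igkv1-135 in library 2 at 30 mg/kg, with 19.3% (17.9 to 20.8%) of only 2849 counts.

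The inverse Simpson index, the number of equally used segments that would give the same concentration, had a lower mean in knockout than in WT colon. It was 28.3 ± 5.61 in KO vehicle libraries (23.4 to 38.8, median 26.7) and 37.4 ± 5.04 in WT libraries (28.1 to 45.8, median 38.0), and 7 of 10 KO vehicle libraries lay below every WT library. Counts were thus spread less evenly over segments in most knockout libraries, although more segments passed 1 CPM there. It was 21.1 ± 7.07 at 10 mg/kg and 24.2 ± 6.15 at 30 mg/kg, with 3 of 7 and 4 of 9 libraries below every KO vehicle library. In anti-p40 libraries it was 21.8, 37.9, 37.4, 35.4 and 23.1, and in D77 vehicle libraries 25.8, 14.5, 38.7, 45.6 and 39.7, which overlap throughout.

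The balance of the loci also differed between knockout and WT colon. Heavy chain segments held 20.6 ± 2.13% of member counts in KO vehicle libraries (17.42 to 23.8%) and 15.2 ± 2.24% in WT libraries (11.7 to 17.39%), with all 10 KO vehicle libraries above every WT library. Kappa segments held 70.6 ± 4.31% in KO vehicle and 77.5 ± 2.74% in WT libraries, and lambda segments 8.77 ± 2.81% in KO vehicle and 7.33 ± 1.72% in WT libraries. In the second set, lambda segments held 10.6 ± 3.84% in anti-p40 and 5.995 ± 3.24% in D77 vehicle libraries, and kappa segments 66.9 ± 5.13% in anti-p40 and 71.5 ± 2.64% in D77 vehicle libraries. The Igkv1 family held 19.1 ± 6.24% in KO vehicle libraries, 26.6 ± 5.72% at 10 mg/kg, 19.1 ± 5.37% at 30 mg/kg and 13.0 ± 3.48% in WT libraries.

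Single segments rose together in knockout colon. Of the 120 members, 97 passed the filter on low counts in the comparison of KO vehicle with WT libraries and 23 did not. By edgeR's quasi-likelihood test with Benjamini-Hochberg adjustment over all genes (adjusted p under 0.05), 83 of the 97 were higher in KO vehicle and 0 were lower, beside 25.2% of all tested genes called higher and 24.1% called lower. All 97 had a fold change above 0 on the log2 scale, with a median of 2.50 and quartiles of 1.84 and 3.17, where the median of all genes was -0.01. Heavy chain members were called higher in 30 of 31 cases (median 2.85), kappa members in 50 of 63 (median 2.33) and lambda members in 3 of 3 (median 2.76). With no filter on low counts, 99 of the 120 were called higher, beside 15% of all genes. These counts describe segments chosen largely by their counts in knockout libraries, and the smooth muscle markers above were lower in the same libraries.

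Among the 5 called members with the smallest p-values, all had groups that did not overlap. Igkv4-61, a kappa segment, had a lowest, median and highest value of 1.94, 6.75 and 14.5 CPM in KO vehicle libraries, against 0.195, 0.776 and 1.52 CPM in WT libraries. Iglv1 had 18.0, 41.2 and 105 CPM in KO vehicle libraries, against 5.11, 7.87 and 11.02 CPM in WT libraries. The lowest knockout library thus exceeded the highest WT library for both a kappa and a lambda segment. On the log2 scale, the differences were 3.32 ± 0.43 for Igkv4-61 (SE, edgeR adjusted p = 2.04e-05) and 2.76 ± 0.36 for Iglv1 (adjusted p = 2.49e-05).

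The heavy chain segment Ighv2-9 had 5.17, 23.4 and 52.9 CPM as its lowest, median and highest value in KO vehicle libraries, against 0.562, 2.01 and 3.78 CPM in WT libraries, a log2 difference of 3.80 ± 0.54 (SE, edgeR adjusted p = 5.05e-05). The kappa segments Igkv8-30 and Igkv4-53 had log2 differences of 3.19 ± 0.44 (adjusted p = 3.36e-05) and 3.14 ± 0.45 (adjusted p = 4.40e-05). In total every KO vehicle library lay above every WT library for 12 of the 97 members tested, beside 2.43% of all tested genes, the other 7 being Igkv9-120, Igkv6-15, Ighv1-5, Igkv4-72, Igkv1-110, Igkv4-57-1 and Igkv17-127.

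The most abundant members did not all separate as cleanly. Igkv1-135 averaged 59.0 ± 68.3 CPM in KO vehicle libraries (4.26 to 214, median 25.5) and 2.68 ± 1.15 CPM in WT libraries (1.36 to 4.41, median 2.42), a log2 difference of 4.64 ± 0.80 (SE, edgeR adjusted p = 0.000241). The difference between group means was large, but the lowest knockout library lay within the WT range. Igkv1-110 averaged 40.6 ± 30.2 CPM in KO vehicle and 5.48 ± 2.50 CPM in WT libraries (log2 difference 3.07 ± 0.49, adjusted p = 0.000128), and its near copy Igkv1-117 averaged 40.9 ± 21.6 CPM in KO vehicle and 6.33 ± 3.84 CPM in WT libraries (2.85 ± 0.41, adjusted p = 5.25e-05). Igkv10-96 rose least of the 10 most abundant members, by 1.84 ± 0.36 (adjusted p = 0.000561), and its share of member counts was 2.79 ± 0.79% in KO vehicle and 4.93 ± 1.59% in WT libraries.

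The segment with the smallest difference was Igkv8-28, with 2.62 ± 1.52 CPM in KO vehicle and 2.60 ± 2.58 CPM in WT libraries, and the one with the largest was the pseudogene Ighv1-73, with 2.12 ± 2.55 CPM in KO vehicle and 0.0597 ± 0.0752 CPM in WT libraries (log2 difference 5.18 ± 1.01, edgeR adjusted p = 0.000575). The WT mean of Ighv1-73 lay below the limit of 3 counts, so the size of its difference is uncertain. Its variable exon was 96.7% identical to that of Ighv1-63, and 79.5% of its values above 0 were not whole. Of the 14 members tested and not called, 5 belonged to the Igkv3 family, a group singled out after its values were seen. Igkv3-2, Igkv3-4, Igkv3-5, Igkv3-7 and Igkv3-10 differed by 0.35 to 0.93 on the log2 scale, whereas Igkv3-1 (1.502, adjusted p = 0.0379) and Igkv3-12 (2.54, adjusted p = 0.000581) were called higher. As a share of member counts, the 7 Igkv3 members held 4.57 ± 1.65% in KO vehicle libraries (2.46 to 6.76%) and 11.2 ± 1.29% in WT libraries (8.87 to 12.5%), with no overlap. In the second set they held 6.09 ± 3.16% in anti-p40 libraries (2.93 to 11.03%) and 3.85 ± 0.56% in D77 vehicle libraries (3.31 to 4.51%), which overlapped. All 7 lie within 0.0184 to 0.204 Mb of the joining segments, at the near end of the kappa locus, with Igkv3-1 the nearest. Families far from the joining segments went both ways in mean share. Igkv14 (2.20 to 2.83 Mb) held 0.876% in KO vehicle and 2.81% in WT libraries. Igkv10 (2.02 and 2.09 Mb) held 3.31% in KO vehicle and 5.58% in WT libraries. Igkv1 (1.86 to 3.11 Mb) held 19.1% in KO vehicle and 13.0% in WT libraries. The ranges overlapped for each of these far families. A link between position and share was not tested.

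Constant chain, plasma cell and B cell genes, taken from lists chosen by function, gave the setting. Of 13 constant chain and transport genes tested, 11 were called higher in KO vehicle than in WT libraries, with a median of 2.28. Igha averaged 2081 ± 1278 CPM in KO vehicle and 477 ± 157 CPM in WT libraries (log2 difference 2.29 ± 0.33 SE, edgeR adjusted p = 5.66e-05), and Jchain averaged 943 ± 522 CPM in KO vehicle and 214 ± 45.6 CPM in WT libraries (2.31 ± 0.31). Both rose by about as much as the median variable segment. Igkc, the kappa constant region, rose by 1.96 ± 0.29, and Ighg2b, of an IgG heavy chain, by 4.40 ± 0.64. Ighm, of IgM, rose by 0.99 ± 0.34 (adjusted p = 0.024), a call that ended without a filter on low counts (adjusted p = 0.0529) or without KO vehicle library 2 (adjusted p = 0.0544). Ighg1 was not called, with 4.36 ± 2.96 CPM in KO vehicle and 5.37 ± 2.59 CPM in WT libraries.

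Of 14 plasma cell genes, 12 were called higher in KO vehicle libraries, with a median of 1.43. Prdm1, a transcription factor of plasma cell differentiation, averaged 29.8 ± 17.6 CPM in KO vehicle and 4.49 ± 0.624 CPM in WT libraries (2.92 ± 0.35, edgeR adjusted p = 9.04e-06), and Mzb1, a chaperone of antibody secretion, rose by 2.01 ± 0.29. Sdc1, a plasma cell surface proteoglycan that colon epithelium also expresses, was not called (0.14 ± 0.11). Of 15 B cell and follicle genes, 10 were called higher, with a median of 0.94, among them Cd79a of the B cell receptor (1.06 ± 0.37) and the follicle chemokine Cxcl13 (1.22 ± 0.30). Of the 11 genes of recombination and class switching, 5 passed the filter and 2 were called higher, among them Vpreb3 (1.77 ± 0.37).

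**Figure D3:**
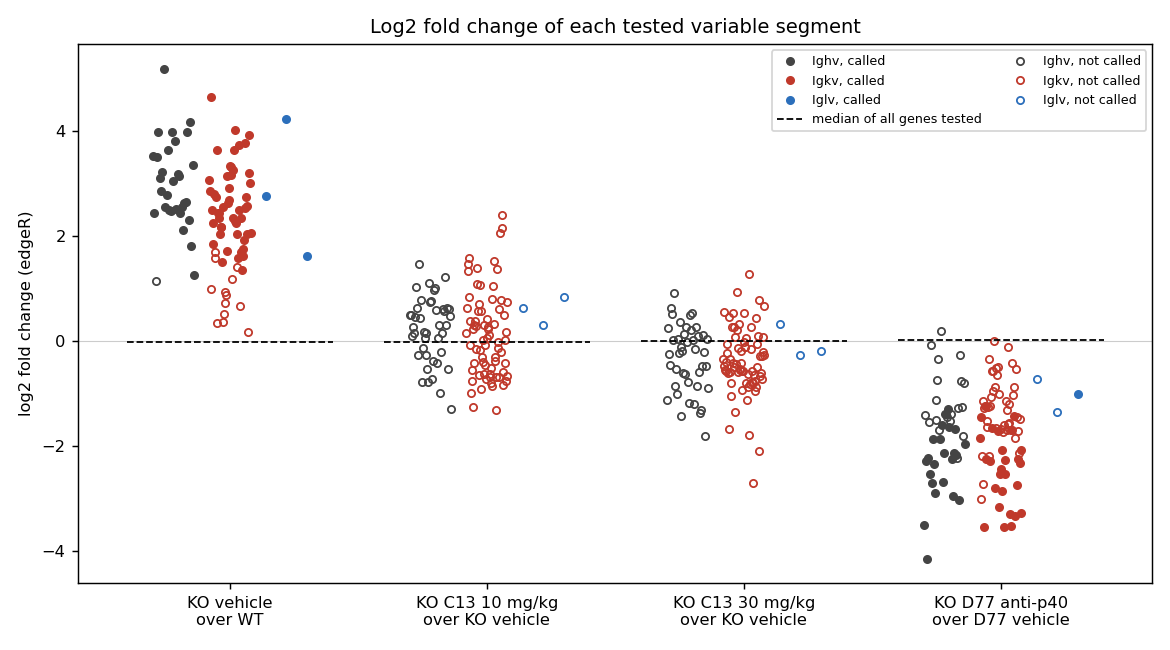
Log2 fold change (edgeR) of each tested variable segment in 4 comparisons, with Ighv, Igkv and Iglv members side by side, filled points for members called at adjusted p under 0.05, and dashed lines at the median of all genes tested. In KO vehicle over WT all points lie above 0, in anti-p40 over D77 vehicle nearly all lie below 0, and no point is called for compound 13.

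No variable segment passed the test with compound 13, which does not show that the levels were equal. At 10 mg/kg, 118 of the 120 members passed the filter and 0 were called in either direction, beside 0.0059% of all genes called higher and 0.0059% called lower. At an unadjusted p under 0.05, 5 members were higher and 0 lower, beside 5.32% of all genes higher and 5.69% lower. At 30 mg/kg, 118 passed and 0 were called, beside 0% of all genes called higher and 0% lower. At an unadjusted p under 0.05, 1 member was higher and 6 were lower, beside 2.12% of all genes higher and 3.8% lower. DESeq2 also called 0 members in both comparisons. Both doses were compared with the same KO vehicle libraries that were set against WT.

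The median log2 difference over the tested members was 0.17 at 10 mg/kg, with 71 of 118 above 0, and -0.34 at 30 mg/kg, with 82 of 118 below 0, where the median standard error of one member was 0.69 and 0.64. The medians of all genes were -0.018 and 0.0037. With 1 library left out, the 10 mg/kg median ran from -0.036 (without library 2 at that dose) to 0.387 (without KO vehicle library 2). The 30 mg/kg median ran from -0.515 (without library 8 at that dose) to -0.072 (without KO vehicle library 2). The members with the smallest p-values at 10 mg/kg were Ighv1-66, with 8.27 ± 4.35 CPM at 10 mg/kg and 3.14 ± 3.54 CPM with vehicle (1.47 ± 0.54 SE, edgeR adjusted p = 0.341), Igkv6-23 (2.05 ± 0.77, adjusted p = 0.346) and Igkv16-104 (1.39 ± 0.57, adjusted p = 0.387). The Igkv6-23 value rested on 1 library: its lowest, median and highest levels were 1.51, 6.14 and 160 CPM at 10 mg/kg, and without library 4 at 10 mg/kg the difference was -0.04. In that library Igkv6-23 held 15.5% of member counts, against at most 4.32% in any other library of the series.

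At 30 mg/kg the smallest p-values belonged to Igkv5-45, with 0.393 ± 0.371 CPM at 30 mg/kg and 2.61 ± 3.87 CPM with vehicle (-2.70 ± 0.82 SE, edgeR adjusted p = 0.835), Igkv4-74 (-1.79 ± 0.60) and Ighv5-17 (-1.21 ± 0.43), all with the same adjusted p. Igkv5-45 is the near copy of Igkv5-43 shown above, so the split of reads between them is uncertain. Igkv5-43 itself had 8.20 ± 5.57 CPM at 30 mg/kg and 12.8 ± 6.30 CPM with vehicle. The constant chain genes gave 0 calls at either dose: Igha differed by 0.57 ± 0.38 at 10 mg/kg and -0.17 ± 0.36 at 30 mg/kg, and Igkc by 0.82 ± 0.35 (adjusted p = 0.392) at 10 mg/kg and -0.07 ± 0.33 at 30 mg/kg. The B cell list had a median of 0.30 at 10 mg/kg and -0.72 at 30 mg/kg, and the smooth muscle list -0.93 at 10 mg/kg and 0.33 at 30 mg/kg, with 0 calls in each.

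With the antibody to p40, part of the variable segments passed the test, all of them as lower. Of the 120 members, 116 passed the filter, and 52 were called lower and 0 higher by edgeR, beside 8.32% of all genes called lower and 8.35% called higher. With no filter on low counts the number was 29, beside 4.18% of all genes called lower. The median log2 difference was -1.65 over the 116 members, of which 114 lay below 0, and that of all genes was 0.01. The smooth muscle markers above were higher in the same anti-p40 libraries. Heavy chain members were called lower in 23 of 43 cases, kappa members in 28 of 70 and lambda members in 1 of 3. For 20 of the 116 members every anti-p40 library lay below every D77 vehicle library, beside 6.07% of all tested genes. The count of members called lower fell to 34 without anti-p40 library 1 and to 31 without anti-p40 library 4, and was 20 when all 6 groups entered 1 fit.

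Igkv4-70 had the smallest p-value. It had 0.820, 1.06, 0.875, 0.969 and 0.962 CPM in anti-p40 libraries, against 7.53, 6.63, 2.78, 6.38 and 3.18 CPM in D77 vehicle libraries. The anti-p40 libraries were close to each other and all below the vehicle libraries. The log2 difference was -2.53 ± 0.28 (SE, edgeR adjusted p = 0.000422). Igkv12-41 had 1.09, 0.624, 0.250, 0.484 and 0.452 CPM in anti-p40 libraries, against 14.2, 4.53, 3.03, 3.64 and 7.23 CPM in D77 vehicle libraries (-3.53 ± 0.48, adjusted p = 0.00124). The heavy chain segment Ighv5-6 had 1.26, 1.23, 0.718, 0.484 and 0.329 CPM in anti-p40 libraries, against 4.75, 4.74, 2.22, 12.8 and 6.33 CPM in D77 vehicle libraries (-2.96 ± 0.47, adjusted p = 0.00258). For all 3 segments the groups did not overlap. Their levels in anti-p40 libraries were low, down to 0.250 CPM for Igkv12-41. Of the values above 0, 37.8% were not whole for Igkv4-70, 17.5% for Igkv12-41 and 40.5% for Ighv5-6, so shared reads enter them.

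Igkv4-55 had 1.96, 2.25, 1.31, 1.41 and 1.26 CPM in anti-p40 libraries, against 4.65, 3.65, 9.65, 16.3 and 11.2 CPM in D77 vehicle libraries (log2 difference -2.53 ± 0.40 SE, edgeR adjusted p = 0.00261, and 0.0641 with all 6 groups in 1 fit). Igkv4-57 had 1.17, 2.18, 0.562, 0.524 and 1.52 CPM in anti-p40 libraries, against 3.76, 7.65, 4.74, 5.18 and 10.1 CPM in D77 vehicle libraries (-2.45 ± 0.41, adjusted p = 0.00361). Of the 5 called members with the smallest p-values, 3 are thus of the Igkv4 family, which holds 17 of the 120 members. These 5 were picked by p-value from the same data, and a difference between families was not tested. Ighv2-9 had 2.74, 7.61, 15.5, 10.3 and 27.3 CPM in anti-p40 libraries, against 90.4, 66.4, 50.5, 34.2 and 32.1 CPM in D77 vehicle libraries (-2.14 ± 0.52, adjusted p = 0.0186), again without overlap. This call ended without a filter on low counts (adjusted p = 0.0744) and without anti-p40 library 2 (adjusted p = 0.0507).

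The most abundant light chain segments varied more. Iglv1 had 51.2, 27.5, 26.9, 29.6 and 62.0 CPM in anti-p40 libraries, against 101, 18.2, 65.8, 56.5 and 69.0 CPM in D77 vehicle libraries, and was not called (log2 difference -0.72 ± 0.39 SE, edgeR adjusted p = 0.229). Igkv1-135 had 5.59, 3.18, 6.24, 23.2 and 46.3 CPM in anti-p40 libraries, against 180, 33.2, 40.8, 65.8 and 59.8 CPM in D77 vehicle libraries. It was not called either (-2.19 ± 0.75, adjusted p = 0.0696), although 4 of 5 anti-p40 libraries lay below every vehicle library. Igkv1-110 was called lower (-1.84 ± 0.47, adjusted p = 0.022), as was its near copy Igkv1-117 (-1.45 ± 0.41, adjusted p = 0.0327), and both calls depended on the setting. The Igkv1-117 call failed in 10 of 16 other settings, and the Igkv1-110 call failed without a filter on low counts (adjusted p = 0.0818), by limma on log2(TPM + 1) (adjusted p = 0.0623) and with all 6 groups in 1 fit (adjusted p = 0.0732). Ighv14-3 averaged 16.7 ± 28.5 CPM in anti-p40 and 21.1 ± 25.2 CPM in D77 vehicle libraries, each mean resting on 1 library with 67.7 CPM in the anti-p40 group and 65.9 CPM in the vehicle group. Without D77 vehicle library 4 its log2 difference was 0.70, and without anti-p40 library 5 it was -2.43 (adjusted p = 0.0421).

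**Figure D4:**
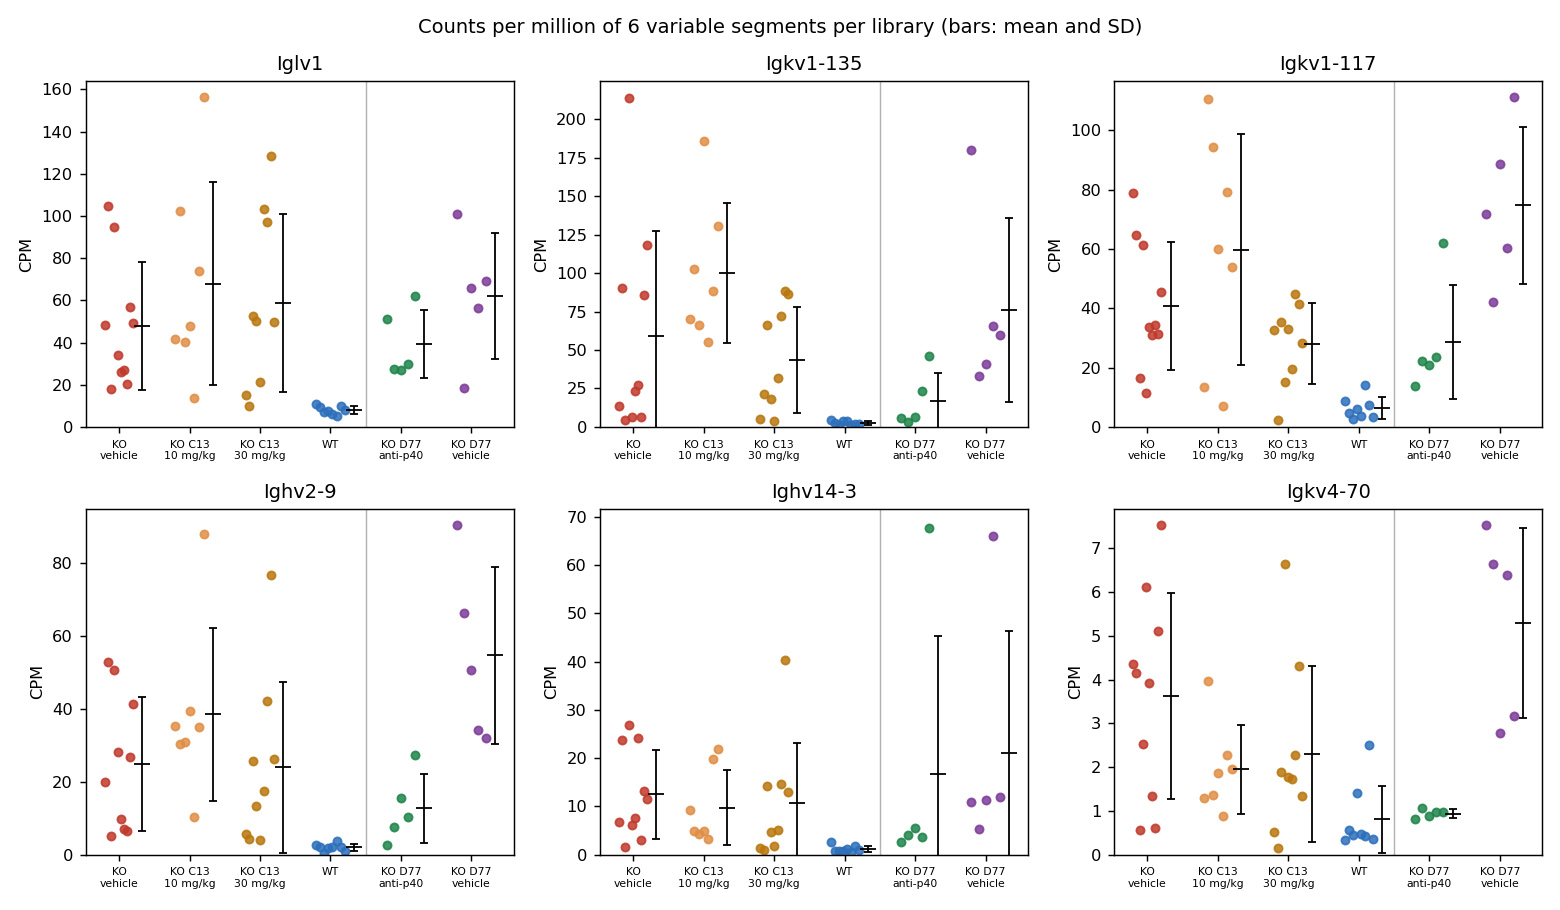
CPM of 6 variable segments, 1 point per library, with the group mean and SD as bars (bars end at 0). Iglv1 and Ighv2-9 do not overlap between KO vehicle and WT libraries, Igkv4-70 and Ighv2-9 do not overlap between anti-p40 and D77 vehicle libraries, and the Ighv14-3 means of the D77 groups each rest on 1 library.

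Of 13 constant chain and transport genes tested, 5 were called lower and 1 higher with anti-p40, with a median log2 difference of -1.004. Igha averaged 1509 ± 341 CPM in anti-p40 and 4002 ± 810 CPM in D77 vehicle libraries (log2 difference -1.45 ± 0.19 SE, edgeR adjusted p = 0.00113), Jchain differed by -1.44 ± 0.20 and Igkc by -1.41 ± 0.22, and Ighg3 (-1.56 ± 0.42) and Ighg2b (-2.03 ± 0.54) were also called lower. Ighm was not called (0.29), and Ighg1 was called higher, with 8.52 to 110 CPM (median 24.5) in anti-p40 and 2.96 to 13.9 CPM (median 6.50) in D77 vehicle libraries (2.30 ± 0.62, adjusted p = 0.0291), though the groups overlapped. Of 14 plasma cell genes, 7 were called lower, among them Prdm1 (-1.501 ± 0.24) and Mzb1 (-1.13 ± 0.21), and 0 were called higher. Of the 15 B cell and follicle genes, 0 were called by edgeR, with a median of 0.04. The recombination and class switch list gave 0 calls among 6 genes tested.

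The comparisons of KO vehicle with WT and of anti-p40 with D77 vehicle share no library. Of 96 members tested in both, 82 were called higher in the first, 44 were called lower in the second and 41 were both, which is 50% of the higher and 93.2% of the lower ones. Since 85.4% of these members were called higher, most members called lower would be among them in any case. Over all 16111 genes tested in both, 1201 were called both, 29.2% of the 4119 higher and 89.9% of the 1336 lower ones. In the authors' deposited tables, which list all 120 members, 100 were higher and 0 lower in knockout vehicle against control at adjusted p under 0.05 (median log2 fold change 2.53), beside 26.4% of all genes higher and 24.3% lower. In the authors' deposited table for anti-p40, 70 were lower and 0 higher (median -1.68), beside 11.1% of all genes lower and 10.8% higher. Some members, among them Ighv14-3 and Igkv10-94, had no adjusted p there. In each deposited table the shares of all genes cover only genes with an adjusted p. In the authors' deposited tables for compound 13, 0 members were called at either dose, beside 0.265% of all genes higher and 0.339% lower at 10 mg/kg, and 0% higher and 0.00566% lower at 30 mg/kg. The authors' deposited table also gave Igkv1-135 a log2 fold change of -2.19 with anti-p40 at an adjusted p of 0.0279, on the other side of the threshold from the edgeR value above.

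The amount of variable segment RNA was also set against that of the constant genes and of Jchain in the same library. The ratio of variable segment to constant chain counts was 0.185 ± 0.0309 in KO vehicle and 0.133 ± 0.0319 in WT libraries, with overlapping ranges. It was 0.152 ± 0.0314 at 10 mg/kg and 0.174 ± 0.0502 at 30 mg/kg, and 0.173 ± 0.0275 in anti-p40 against 0.210 ± 0.0134 in D77 vehicle libraries. The Ighv ratio to heavy chain constant counts was 0.0627 ± 0.0136 in KO vehicle and 0.0349 ± 0.0120 in WT libraries, with 8 of 10 KO vehicle libraries above every WT library. At 10 mg/kg it was 0.0573 ± 0.0129, with 0 of 7 libraries below every KO vehicle library, and the Iglv to Iglc ratio was 0.529 ± 0.132 at 10 mg/kg and 0.573 ± 0.151 with vehicle, with 1 of 7 below. For kappa, the Igkv to Igkc ratio was 0.265 ± 0.0645 at 10 mg/kg and 0.366 ± 0.0605 with vehicle, and 5 of 7 libraries at 10 mg/kg lay below every KO vehicle library. At 30 mg/kg this kappa ratio was 0.316 ± 0.0973, with 3 of 9 libraries below and 1 above every KO vehicle library. It was 0.352 ± 0.0489 in anti-p40 and 0.440 ± 0.0632 in D77 vehicle libraries, with 3 of 5 anti-p40 libraries below every D77 vehicle library. The ratio to Jchain was 0.731 ± 0.0944 in KO vehicle libraries (0.619 to 0.882) and 0.594 ± 0.119 in WT libraries (0.454 to 0.787), and 1.10 ± 0.136 in anti-p40 (0.898 to 1.25) against 1.26 ± 0.139 in D77 vehicle libraries (1.10 to 1.38). All libraries of the second set thus had more variable segment RNA per Jchain RNA than any library of the first set. The sets were quantified in separate tables, and whether they differ for technical reasons was not tested.

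**Figure D5:**
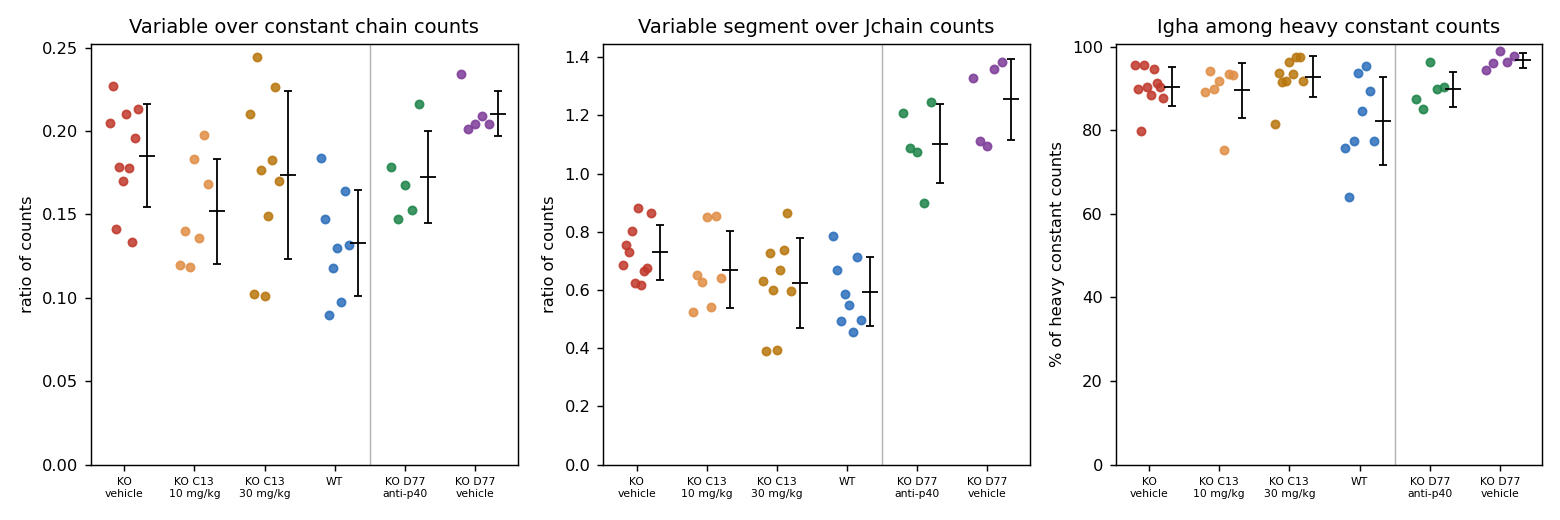
Ratio of variable segment to constant chain counts, ratio of variable segment to Jchain counts, and Igha as a percent of heavy chain constant counts, 1 point per library, with the group mean and SD as bars. The ranges of KO vehicle and WT libraries overlap in each panel, and the Jchain ratios of the D77 libraries lie above those of all other libraries.

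Igha held most heavy chain constant counts in every group. It made up 90.3 ± 4.66% in KO vehicle libraries (79.9 to 95.7%) and 82.2 ± 10.6% in WT libraries (64.1 to 95.4%), 89.5 ± 6.55% at 10 mg/kg and 92.8 ± 4.92% at 30 mg/kg. In the second set it made up 89.8 ± 4.21% in anti-p40 libraries (85.1 to 96.3%) and 96.7 ± 1.74% in D77 vehicle libraries (94.3 to 98.9%). The variable segments described here were therefore measured in tissue whose antibody RNA was mainly of the IgA class.

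Segment usage differed between libraries of one group as well as between groups. After thinning to 1939 member counts, the usage overlap of a pair of libraries, the sum over members of the smaller of both shares, had a median of 62.2% among KO vehicle libraries (50.3 to 73.4%, 45 pairs), 67.7% among WT libraries (61.4 to 80.5%, 28 pairs) and 59.6% between KO vehicle and WT libraries (80 pairs). Usage was thus more alike among WT libraries than in these other pairs by median, and pairs share libraries, so no test is given. The median was 63.8% among anti-p40 libraries, 59.7% among D77 vehicle libraries and 60.0% between them. Some segments were abundant in 1 library alone. Ighv1-37 held 4.97% of member counts in D77 vehicle library 2 and at most 0.310% in any other library. Its log2 difference with anti-p40, with that library in the fit, was -4.15 ± 1.23 (SE, edgeR adjusted p = 0.0402). The authors' deposited table gave it -4.18 and no adjusted p. Its variable exon was 98.7% identical to that of Ighv1-20, and 27.9% of its values above 0 were not whole.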

How the data were processed

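Distal colon RNA of 45 libraries was analysed from the processed files. Per the submitters' processing notes, which give tools without roles, the authors named RSEM 1.3.3, STAR 2.7.8a, DESeq2 1.30.1, cutadapt 3.7 and the mm10 build. The authors deposited 2 tables of expected counts (estimated counts per gene, not whole numbers), 2 tables of TPM, and comparison tables with log2 fold changes and adjusted p-values. The strand setting, the annotation and how reads with several matches were counted: not given in the sources used here. Symbols came from GENCODE M21 for 50376 of 50600 identifiers (224 unmatched).

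Estimated counts were rounded and tested with edgeR 4.0.16 (quasi-likelihood, robust, TMM, filterByExpr) in R 4.3.3, with Benjamini-Hochberg adjustment over all genes tested and a threshold of 0.05. KO vehicle against WT, and anti-p40 against D77 vehicle, were fitted on their own groups; both compound 13 doses and KO vehicle shared 1 fit. Alternatives were DESeq2 1.42.0, RLE scaling, no filter, library sizes without immunoglobulin genes, limma 3.58.1 on log2(TPM + 1), all 6 groups in 1 fit, and each library left out. The analysis was tested on simulated counts. Sequence identity is 100 minus the edit distance (edlib 1.3.9.post1) as a percent of exon length. Sums, numbers and shares over members carry no test. Lowest, median and highest are given for groups over 5 libraries. Intervals are exact binomial (95%) and hold for counting error alone. Every group's libraries differed by more than sampling noise.

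The members and gene lists were chosen with earlier results of these data known. The rule for naming members was the 10 largest mean CPM values, those leading in 2 or more libraries, the 5 called members with the smallest p-values per comparison and direction (3 where none was called), and those beside the threshold; others named were chosen after their values were seen. Some genes of the lists are not reported here.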

Additional observations from a re-analysis of the deposited data

Results flagged for a closer look

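Single libraries stood apart from the rest of their group in 20 of 96 groups of values looked at. Dixon's test of the gap to the nearest library was used at the 95% level, on values without a log. Chance alone passes it in about 1 in 20 groups only where values are normally distributed. Levels of several segments had a long upper tail, so this rate need not hold here and 20 of 96 cannot be set against it. At 10 mg/kg, library 5 had 37 members at 1 CPM or more, against 81 to 99 in the others. D77 vehicle library 2 had 90, against 109 to 113. WT library 6 had a top segment share of 13.24%, against 4.97 to 8.82%, set by Igkv1-117.

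The other flags were high levels of 1 segment in 1 library, in CPM. Igkv1-135 reached 180 in D77 vehicle library 1 (33.2 to 65.8 in the others), and Igkv8-30 reached 156.9 there (33.2 to 57.5). Igkv1-117 reached 62.06 in anti-p40 library 5 (13.6 to 23.7), and Ighv14-3 reached 67.68 there (2.57 to 5.46). D77 vehicle library 4 had 65.94 of Ighv14-3 (5.29 to 11.9) and 55.8 of Igkv15-103 (13.9 to 25.5). Library 8 at 30 mg/kg had 95.31 of Igkv1-110 (5.42 to 43.9), 54.94 of Igkv8-30 (0.624 to 12.3) and 40.23 of Ighv14-3 (1.05 to 14.6). Igkv15-103 reached 42.35 in library 3 at 10 mg/kg (0.964 to 16.5), 58.77 in library 3 at 30 mg/kg (1.65 to 17.7) and 4.43 in WT library 7 (0.741 to 1.90), where Igkv4-59 reached 7.762 (1.70 to 3.31). Igkv4-59 reached 83.05 in KO vehicle library 4 (7.60 to 35.4), Igkv4-72 65.01 in KO vehicle library 9 (3.76 to 35.5) and 43.88 in D77 vehicle library 5 (9.15 to 18.8), and Ighv2-9 87.92 in library 7 at 10 mg/kg (10.4 to 39.3).

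The library whose labels disagree on the dose, which no comparison used, had a summed variable segment level of 466.8 CPM, above the 77.8 to 200.2 CPM of WT libraries.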

How the results depend on the processing

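No paired analysis was possible because the labels give no replicate numbers that tie libraries across groups. The 83 members called higher in KO vehicle against WT became 75 to 89 when 1 library was left out, with 0 lower. The 52 members called lower with anti-p40 became 29 without a filter on low counts, 29 by limma on log2(TPM + 1), 20 with all 6 groups in 1 fit, and 31 to 58 when 1 library was left out; the cause was not tested. For compound 13 the counts were 0 in every setting run, as was the count of members higher with anti-p40. The difference in members at 1 CPM or more between KO vehicle and WT, 40.9 to 47.2 when 1 library was left out, was 3.03 after thinning, which also counts any value above 0. For anti-p40 it was -36.9 to -30.2 when 1 library was left out, -11.0 at 10 counts or more, and -1.46 after thinning. For compound 13 it was -0.1 to 10.2 at the low dose, against -11.8 to -2.35 at 30 mg/kg.

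With 1 library left out, the log2 ratio of summed levels was 2.29 to 2.58 for KO vehicle against WT, 0.13 to 0.41 at the low dose, -0.49 to -0.11 at the high dose and -1.80 to -1.48 for anti-p40. The difference in top segment share was 2.10 to 3.32, 2.12 to 5.14, 1.33 to 2.72 and -2.13 to 2.16 percentage points in the same order. The median over the members at 10 mg/kg changed sign without library 2 at that dose, as given above. The sign changes that follow are those of single genes. Log2 differences that changed sign were: at 30 mg/kg, Igha (range -0.32 to 0.067) without KO vehicle replicate 4, Igkc (lowest -0.18) 0.068 and 0.093 without KO vehicle replicates 2 and 4 and 0.044 and 0.051 without replicates 1 and 2 at that dose, and Jchain (lowest -0.19) 0.11, 0.062, 0.014 and 0.038 without the same 4 libraries; at 10 mg/kg, Igkv6-23 (highest 2.28) -0.040 without replicate 4; and with anti-p40, Ighv14-3 (lowest -2.43) 0.70 without D77 vehicle replicate 4. Depth limits single members most in WT libraries, where the 120 members together held as few as 1939 counts.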

Other observations

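The library with disagreeing dose labels had 69 members at 1 CPM or more and an inverse Simpson index of 19.4. Its most abundant member was Iglv1, with 17.1% of member counts (exact 95% binomial interval 16.5 to 17.7%, counting error only), and its most abundant heavy chain member was Ighv2-9.

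Igkv6-29 held 2.28% of member counts in library 7 at 30 mg/kg and at most 0.533% in any other library. Its variable exon was 97.3% identical to that of Igkv6-20, and 100% of its values above 0 were not whole. Shared reads thus enter every such value, and the split between the 2 segments is uncertain.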
